A study of Mus musculus with 8 samples.

Results

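The genes described here are 10 immediate early genes and Krüppel-like factors, the transcription factors Egr1, Egr2, Egr3, Nr4a1, Klf2, Klf4 and Klf6, the nuclear protein Ier2, the phosphatase Dusp1 and the RNA-binding protein Zfp36. They were found on the arrays by matching each probe's accession to its gene, which named 21154 genes in all and gave each of the 10 genes a single probe. Of the 10 genes, 9 were well above background and were tested among 23118 features, where a feature is a gene or, for an unnamed probe, its accession. Egr3 was not well above background on any of the 8 arrays and was not tested.

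Immediate early genes are switched on within minutes by growth factors, adhesion, stress or microbial products, from factors already present in the cell, and their messengers are short-lived. Egr1 to Egr3 are zinc finger activators, Nr4a1 (Nur77) is an orphan nuclear receptor, and Klf2, Klf4 and Klf6 are zinc finger factors that bind GC-rich promoters and that in macrophages restrain or promote inflammatory genes. Dusp1 switches off MAP kinases and Zfp36 (tristetraprolin) speeds the decay of messengers of cytokines, so both act as brakes that are induced together with the signal they limit.

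Peritoneal macrophages were taken by lavage from male or female mice aged 8 weeks on a 129/C57Bl6 background, plated overnight, and the adherent cells alone gave the RNA for 8 single-colour arrays, 2 mice per group. Fra-1 control mice carried floxed alleles of Fosl1 without Cre (wild-type Fra-1lox/lox, described as littermates), and Fra-1 knockout mice were Fra-1lox/lox MxCre-/+, in which an interferon-inducible promoter drives Cre in many cell types. Fra-2 control mice carried floxed Fosl2 (wild-type Fra-2lox/lox), and the arrays labelled Fra-2 knockout came from Fra-2lox/lox LysMCre-/+ mice, in which Cre is expressed in myeloid cells. Both groups of the Fra-1 line, and neither of the Fra-2 line, were described as thioglycollate elicited, so mouse line, thioglycollate label and preparation cannot be told apart. Fra-1 and Fra-2 are subunits of AP-1, which itself binds and regulates many early genes.

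Values are log2 signals relative to the 75th percentile of the same array, so that a value of 0 lies at that percentile. They compare a gene between arrays and do not rank different genes, whose probes differ. Between 47.7% and 57.6% of spots were well above background on each array. Cell identity was checked first: 7 macrophage markers measured on all arrays were well above background on every array, with a summed linear level (signal over the 75th percentile) of 889 to 1324. This sum hides differences between the lines. At a limma adjusted p under 0.05, 1 of 8 macrophage markers was higher in the Fra-1 line and 6 were lower, beside 27.3% and 26.3% of all features. The log2 difference was 1.98 for Cd68, −4.01 for Cd14 and −1.06 for Fcgr1. Markers of large resident peritoneal macrophages (10 of 12 summed) had a level of 16.0 to 18.0 in the Fra-1 line and 184 to 470 in the Fra-2 line, and Timd4 was not well above background on any Fra-1 line array. Fosl1 was −2.73 and −1.97 in Fra-1 controls and not well above background in Fra-1 knockouts, at −4.78 and −4.18 (log2 difference −2.13, SE 0.53, limma with Benjamini-Hochberg adjusted p = 0.359). The knockout level was at least 3.91-fold lower by a bound. On each knockout array the bound was the higher of the reading and that array's lowest level well above background. For Fra-1 knockout 2 this was the reading itself. The brighter probe of Fosl2 went against its label, with 5.51 and 5.57 in Fra-2 controls and 6.43 and 7.14 on the arrays labelled Fra-2 knockout, while a dimmer Fosl2 probe read −2.59 and −2.64 against −3.96 and −3.82. The position of either probe relative to the floxed exon was not analysed here, so every direction given for the arrays labelled Fra-2 knockout rests on the label.

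Promoters of 5 of the genes are shown as examples of genes that separated the lines (Nr4a1, Klf2, Zfp36) or were higher on both arrays labelled Fra-2 knockout (Dusp1, Klf4). Each of the 5 holds a match of the kinds marked below. Egr2 and Klf6 also separated the lines, but their windows are not printed, and that of Klf6 held no match of these kinds. Each is the 250 bases before the transcription start, 5′ to 3′ on the gene's strand, from RefSeq on assembly GRCm38.p6. Capitals mark matches on either strand to an EGR site (GCGNGGGCG), a cyclic AMP response element (TGACGTCA) or a CArG box, the element bound by serum response factor.
Nr4a1, chr15:101266596-101266845, plus strand: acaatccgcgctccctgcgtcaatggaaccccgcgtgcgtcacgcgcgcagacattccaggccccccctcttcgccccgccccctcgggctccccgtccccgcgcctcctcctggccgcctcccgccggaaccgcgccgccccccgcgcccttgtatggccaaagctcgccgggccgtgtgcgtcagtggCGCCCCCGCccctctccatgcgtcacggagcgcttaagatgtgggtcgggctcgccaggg
Klf2, chr8:72318812-72319061, plus strand: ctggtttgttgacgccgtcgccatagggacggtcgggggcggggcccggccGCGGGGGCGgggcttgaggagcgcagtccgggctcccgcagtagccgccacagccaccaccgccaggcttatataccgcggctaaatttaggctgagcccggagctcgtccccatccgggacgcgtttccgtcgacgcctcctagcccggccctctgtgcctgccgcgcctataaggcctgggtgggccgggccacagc
Zfp36, chr7:28379229-28379478, minus strand: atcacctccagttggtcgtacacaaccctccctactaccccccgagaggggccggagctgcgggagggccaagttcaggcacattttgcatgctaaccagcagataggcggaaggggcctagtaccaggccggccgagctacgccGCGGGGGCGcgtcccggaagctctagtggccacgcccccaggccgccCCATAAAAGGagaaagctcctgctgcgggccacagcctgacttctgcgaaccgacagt
Dusp1, chr17:26508473-26508722, minus strand: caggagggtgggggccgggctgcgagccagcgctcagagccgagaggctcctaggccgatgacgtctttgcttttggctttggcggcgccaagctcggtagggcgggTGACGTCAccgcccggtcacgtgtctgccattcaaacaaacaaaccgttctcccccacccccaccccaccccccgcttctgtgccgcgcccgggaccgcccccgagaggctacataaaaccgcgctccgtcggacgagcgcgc
Klf4, chr4:55532476-55532725, minus strand: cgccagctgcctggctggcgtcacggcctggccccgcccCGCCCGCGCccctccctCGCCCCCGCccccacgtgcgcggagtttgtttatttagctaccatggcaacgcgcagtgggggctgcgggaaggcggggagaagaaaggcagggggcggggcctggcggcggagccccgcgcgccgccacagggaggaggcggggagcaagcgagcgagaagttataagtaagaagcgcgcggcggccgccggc

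Windows were read for 7 of the 10 genes, Egr2 (5 windows), Nr4a1, Klf2, Klf4, Klf6, Dusp1 and Zfp36. An EGR site was found in 4 of the 7 (Nr4a1, Klf2, Klf4 and Zfp36), against 5.33% of 27025 genes with such windows. A CArG box lay in 2 (Egr2 and Zfp36), against 1.62% of genes, and the cyclic AMP response element in 1 (Dusp1), against 1.77%. A KLF site (CCNCNCCC), which can overlap an EGR site, was in all 7 and in 48.5% of all genes. An AP-1 site (TGANTCA) was in 0 of the 7 genes and in 7.82% of all genes. These are matches of letters within 250 bases, not measured binding.

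In Fra-1 knockout macrophages none of the 9 tested genes passed the test. The count called was 0 at an adjusted p under 0.05 (0 of 9, where 3 of 23104 features, 0.013%, were called, 0% higher and 0.013% lower). With quantile normalization 22 features were called, 27.3% of them higher, and 0 of the 9 genes. By unadjusted p under 0.05 the count was also 0 of 9, against 8.83% of features, 3.35% higher and 5.48% lower. The median log2 difference of the 9 genes, Fra-1 knockout minus Fra-1 control, was 0.06, beside 0.03 for all features. The arrays of the groups did not overlap for 4 of the 9 genes, 3 higher (Nr4a1, Klf2, Klf4) and 1 lower (Egr1) in the knockout, against 46.3% of all features, 27.6% higher and 18.8% lower.

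Among the EGR and nuclear receptor factors, the values of Egr1 were 1.22 and 1.57 (Fra-1 control) against 1.09 and 1.07 (Fra-1 knockout). Both knockout arrays lay below both control arrays, and the log2 difference was −0.31 (95% interval −0.69 to 0.07, limma adjusted p = 0.637). Leaving out Fra-1 control 1 gave −0.48, and leaving out Fra-1 control 2 gave −0.13. Egr2, which is induced in macrophages by colony stimulating factors and interleukin-4, had control values of 5.46 and 5.44 beside knockout values of 5.41 and 5.61, with overlapping arrays. For Nr4a1, the controls read 0.83 and 0.97 and the knockouts 1.07 and 1.15. Both knockout arrays were above the controls, by 0.21 on average (interval −0.34 to 0.76, adjusted p = 0.819).

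Klf2, a factor that holds monocytes and macrophages in a quiet state, had the largest difference in the Fra-1 comparison. Its controls read 2.06 and 2.05 and its knockouts 2.25 and 2.86, and Fra-1 knockout 2 stood well above the other arrays. The log2 difference was 0.50 (interval −0.33 to 1.33, adjusted p = 0.702), and it was 0.20 from Fra-1 knockout 1 alone and 0.80 from Fra-1 knockout 2 alone. Klf4, which can favour alternative activation of macrophages, read 1.55 and 1.66 without deletion against 1.77 and 1.90 with it, again without overlap (0.23, interval −0.12 to 0.57, adjusted p = 0.679). Klf6, a factor reported to promote inflammatory genes, was 6.93 and 6.62 against 6.83 and 6.85 and did not separate the groups. Ier2 (−0.55 and −0.62 against −0.64 and −0.61), Dusp1 (1.69 and 2.04 against 2.32 and 1.93) and Zfp36 (0.51 and 0.01 against −0.09 and 0.25) had log2 differences of −0.04, 0.26 and −0.18, with adjusted p from 0.775 to 0.961. Ier2 overlapped only slightly, and Dusp1 and Zfp36 overlapped. Summed levels of fibroblast markers ran from 109 to 157 in Fra-1 controls and from 40.7 to 63.5 in Fra-1 knockouts, and of mesothelial markers from 11.2 to 16.3 and from 5.54 to 8.26, while their part in these results was not tested. Only slide 1 held both Fra-1 groups, and within it Egr1 differed by −0.30 and Klf2 by 0.20.

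**Figure D1:**
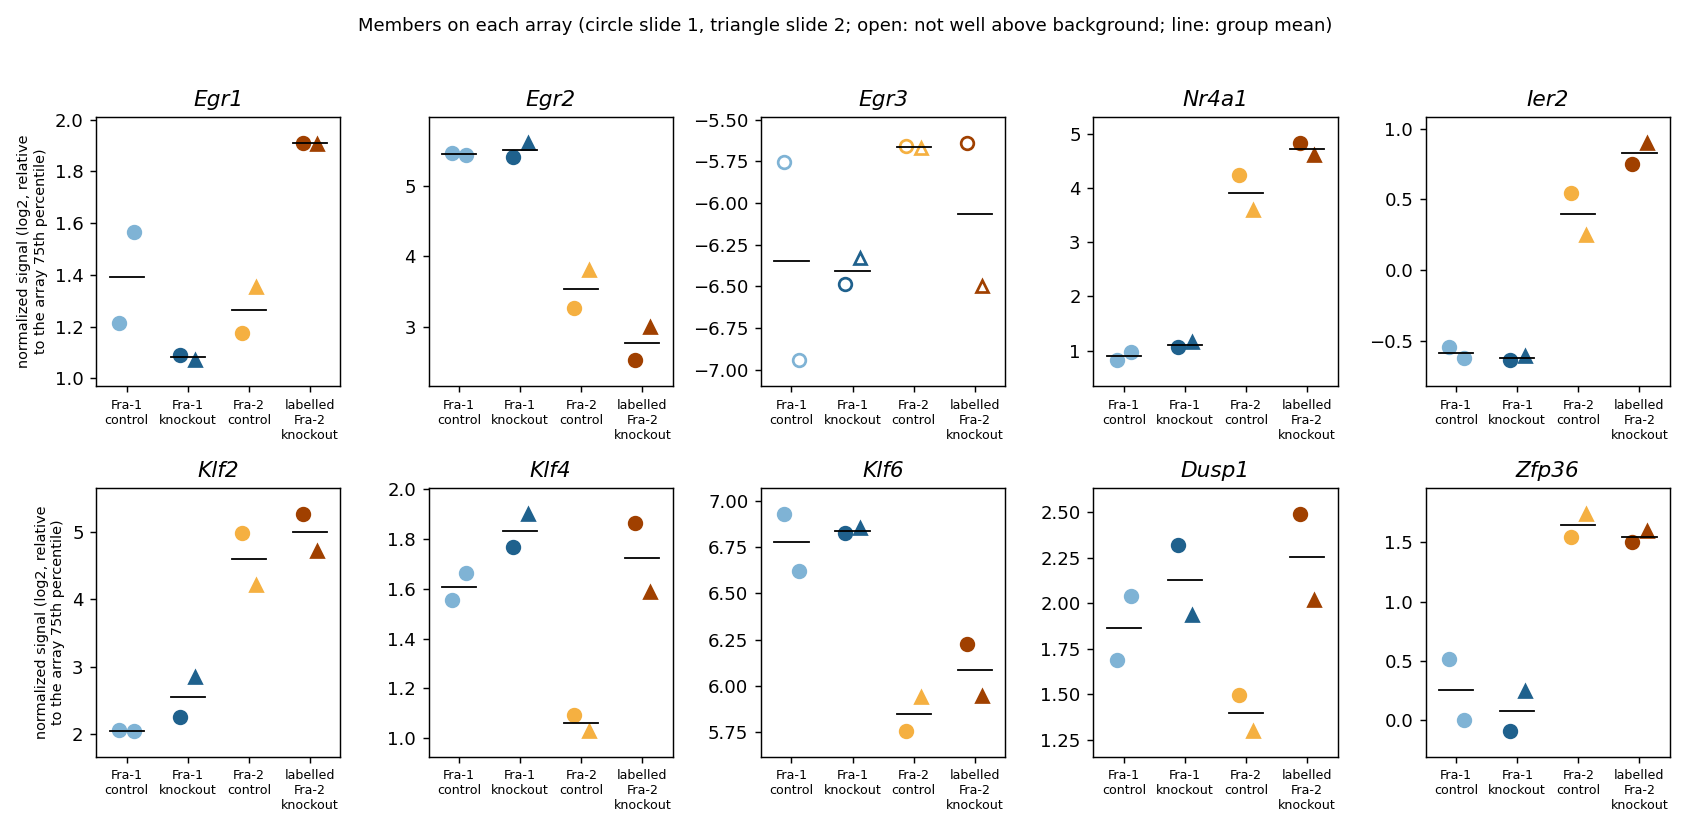
Normalized signal of each of the 10 genes (log2 relative to the array's 75th percentile, a separate axis per gene) on the 8 arrays in the 4 groups. Circles are arrays of slide 1 and triangles of slide 2, open symbols were not well above background, and lines are group means. Nr4a1, Klf2, Ier2 and Zfp36 lie lower and Egr2 and Klf6 higher on all 4 arrays of the Fra-1 line, and Egr3 is open on all 8 arrays.

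In the Fra-2 line, 7 of the 9 genes were higher and 2 lower on the arrays labelled Fra-2 knockout by their means, and none passed the adjusted test. The count was 0 of 9 called, where 0 of 23111 features (0%) were called. By unadjusted limma p under 0.05, 5 genes were higher (Egr1, Nr4a1, Klf4, Ier2, Dusp1) and 1 lower (Egr2), 6 of 9 in all against 8.81% of features, with 3% of features higher and 5.81% lower. The arrays of the groups did not overlap for 7 of the 9 genes, 6 higher and 1 lower, where 35.1% of features did not overlap, 15% higher and 20.2% lower. The median log2 difference of the 9 genes was 0.43, beside −0.03 for all features. With 2 arrays against 2, an exact permutation test of a single gene cannot give a p below 0.333.

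Dusp1, the MAP kinase phosphatase, showed the largest of these differences. It was 1.49 and 1.30 in Fra-2 controls and 2.49 and 2.02 on the arrays labelled Fra-2 knockout. Both labelled knockout arrays lay above both controls, by 0.86 on average (1.81-fold, interval 0.28 to 1.43, unadjusted p = 0.0107, limma adjusted p = 0.352). Nr4a1 was 4.24 and 3.59 in controls and 4.83 and 4.62 on the labelled knockout arrays. The groups did not overlap, and the log2 difference was 0.81 (1.75-fold, interval 0.25 to 1.36, adjusted p = 0.360), and 0.49 without Fra-2 control 2.

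Klf4 was 1.09 and 1.03 in Fra-2 controls and 1.86 and 1.59 on the arrays labelled Fra-2 knockout. Its controls were the lowest of the 8 arrays, and the labelled knockout arrays reached the level of the Fra-1 line (log2 difference 0.66, interval 0.32 to 1.01, adjusted p = 0.244). Egr1 was 1.18 and 1.35 in controls and 1.91 and 1.91 on the labelled knockout arrays, the 2 highest of all 8 arrays (0.64, interval 0.27 to 1.02, adjusted p = 0.288). Ier2, a small nuclear protein induced with Egr1 in many cells, was 0.55 and 0.25 against 0.75 and 0.90. The arrays did not overlap (0.43, interval 0.08 to 0.78, adjusted p = 0.467), and the difference was 0.28 without Fra-2 control 2.

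Egr2 was the gene with a lower mean whose arrays separated. It was 3.26 and 3.80 in controls and 2.53 and 3.00 on the arrays labelled Fra-2 knockout, without overlap. The log2 difference was −0.77 (interval −1.35 to −0.19, adjusted p = 0.421), opposite in sign to Egr1, and −0.50 without Fra-2 control 2. Klf2 was 4.99 and 4.22 against 5.27 and 4.73, with overlapping arrays and a difference of 0.39 (interval −0.44 to 1.23, adjusted p = 0.862). That difference was 0.0071 without Fra-2 control 2, 0.12 without Fra-2 knockout 1, 0.67 without Fra-2 knockout 2 and 0.78 without Fra-2 control 1. Klf6 was 5.76 and 5.94 against 6.23 and 5.94 (0.24, adjusted p = 0.803), and Zfp36 was 1.54 and 1.74 against 1.50 and 1.59 (−0.09, adjusted p = 0.976). Of these last genes, Klf6 separated by the narrowest of margins and Zfp36 overlapped.

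Each of the 2 slides held 1 Fra-2 control and 1 array labelled Fra-2 knockout. The difference on slide 1 and slide 2 was 0.997 and 0.71 for Dusp1, 0.59 and 1.02 for Nr4a1, and 0.77 and 0.56 for Klf4. It was 0.73 and 0.55 for Egr1, 0.20 and 0.65 for Ier2, and −0.73 and −0.81 for Egr2. The arrays of these 6 genes did not overlap between the groups, so an equal sign on both slides was fixed in advance. With a slide term 0 of 9 genes were called, as without it. The summed level of neutrophil markers was 15.8 to 22.1 in Fra-2 controls and 29.7 to 33.1 on the labelled knockout arrays, and of large resident macrophage markers 184 to 339 and 296 to 470. Of 7 neutrophil markers tested, 4 were higher and 3 lower by their means. By unadjusted limma p under 0.05, 1 was higher and 0 lower, beside 3% and 5.81% of all features. Of 12 large resident macrophage markers tested, 8 were higher and 3 lower by their means, beside 10415 and 12696 of 23118 features. Cxcl13, which lacked a value on a Fra-2 control array and was left out of the sum, went against the sum, with a log2 difference of −1.27. Hspa1a, an inducible heat shock gene that marks cell stress, was lower on the labelled knockout arrays by its mean (log2 difference −1.23, limma adjusted p = 0.101). It was not typical of its list. Of 10 heat shock genes tested, 2 were higher and 8 lower by their means, with a median of −0.12. By unadjusted limma p under 0.05, 0 of the 10 were higher and 1 lower, Hspa1a itself. The part of these marker and heat shock lists in the differences of the early genes was not tested.

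**Figure D2:**
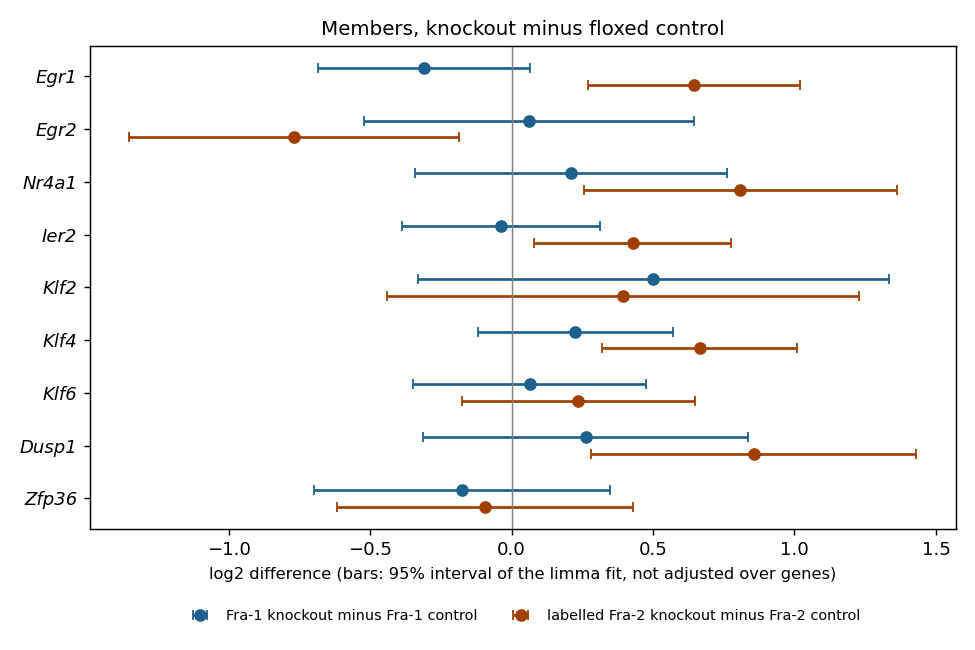
Log2 difference of each tested gene between knockout and floxed control arrays, in the Fra-1 line (blue) and on the arrays labelled Fra-2 knockout (orange). Points are differences of group means of 2 arrays, and bars are 95% intervals of the limma fit, not adjusted over genes. The orange intervals of Egr1, Egr2, Nr4a1, Ier2, Klf4 and Dusp1 leave out 0, the blue ones all include it, and 0 of 9 genes were called in either comparison.

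The difference between the responses in the lines was tested directly. None of the 9 genes was called (0 of 9, where 1 of 23098 features, 0.00433%, was called), and 2 of 9 had an unadjusted p under 0.05 against 9.54% of features (5.37% higher, 4.17% lower). These were Egr1, with a Fra-1 effect minus Fra-2 effect of −0.95 (interval −1.49 to −0.42, limma adjusted p = 0.286), and Egr2, with 0.83 (interval 0.01 to 1.65, adjusted p = 0.521). Egr1 thus had knockout arrays below the controls in the Fra-1 line and labelled knockout arrays above the controls in the Fra-2 line, and Egr2 was nearly level in the Fra-1 line and lower on the labelled knockout arrays. Intervals for the other genes included 0, from −1.38 to 0.18 for Nr4a1 and from −1.07 to 1.28 for Klf2.

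Relatives of the early genes gave no calls in either knockout comparison, and counts below use an unadjusted p under 0.05, which 3% of all features passed as higher and 5.81% as lower on the arrays labelled Fra-2 knockout, and 3.35% and 5.48% in the Fra-1 comparison. On the arrays labelled Fra-2 knockout, 14 other immediate early transcription factors had a median log2 difference of 0.25, with 4 higher and 0 lower. Nr4a2, the relative of Nr4a1, was 0.27 ± 0.12 (SD, n = 2) in Fra-2 controls and 0.86 ± 0.06 on the labelled knockout arrays (limma adjusted p = 0.306). Of 20 other immediate early genes, 2 were higher and 1 lower by the same rule, and Rgs1 differed by −0.76 (limma adjusted p = 0.328). Of 11 other dual specificity phosphatases, 1 was higher, Dusp22, by 0.58 (limma adjusted p = 0.226), and of 6 serum response factor genes 1 was lower, Elk3, by −0.95 (limma adjusted p = 0.50). In the Fra-1 comparison the transcription factor list had a median of 0.15 with 0 of 14 past that p, and the smallest p was that of Jund (0.26, limma adjusted p = 0.603). The phosphatases and the serum response factor genes also had 0, with the smallest p for Dusp14 (−0.74, limma adjusted p = 0.679) and Elk4 (−0.19, limma adjusted p = 0.735). Of the other immediate early genes 2 were higher and 2 lower, with Ccn1, a secreted matrix protein made by fibroblasts and many other cells, at 0.29 ± 0.61 in Fra-1 controls and −0.98 ± 0.19 in Fra-1 knockouts (limma adjusted p = 0.360).

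Between the lines, most of the genes were called. Between the control groups, 7 of 9 genes were called, 3 higher in the Fra-1 line (Egr2, Klf4, Klf6) and 4 lower (Nr4a1, Klf2, Ier2, Zfp36), where 35.8% of all features were called, 18.1% higher and 17.8% lower. Over all arrays, 4 per line, 8 of 9 genes were called, 3 higher and 5 lower, where 53.6% of features were called, 27.3% higher and 26.3% lower. The arrays of the lines did not overlap for 6 of the 9 genes, 2 higher and 4 lower, against 51.1% of features, 26.4% higher and 24.7% lower. In bulk RNA of this kind, fewer cells of a type and less messenger per cell cannot be told apart.

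Nr4a1 had the largest difference. It ran from 0.83 to 1.15 with a median of 1.02 in the Fra-1 line and from 3.59 to 4.83 with a median of 4.43 in the Fra-2 line, so that the lines were well separated. The log2 difference, Fra-1 line minus Fra-2 line, was −3.31 (9.94-fold lower in the Fra-1 line, SE 0.16, limma adjusted p = 4.48e-05, exact two-sided permutation p = 0.0286, the smallest that 4 arrays against 4 can give). Between controls alone it was −3.01 (adjusted p = 4.53e-04).

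Klf2 ran from 2.05 to 2.86 in the Fra-1 line and from 4.22 to 5.27 in the Fra-2 line, and fell by 2.50 on the log2 scale (5.65-fold, SE 0.24, limma adjusted p = 4.40e-04). Its lines did not overlap, although its arrays within a line were the most spread of the lower genes in the Fra-1 line, over 0.80 log2 units. Zfp36 was 0.51, 0.01, −0.09 and 0.25 on the Fra-1 line arrays and 1.54, 1.74, 1.50 and 1.59 on the Fra-2 line arrays. It was lower in the Fra-1 line by 2.68-fold (log2 difference −1.42, SE 0.15, adjusted p = 6.35e-04), with Fra-2 line arrays within 0.24 of each other. Ier2 was tightly grouped in the Fra-1 line, from −0.64 to −0.55, and ran from 0.25 to 0.90 in the Fra-2 line. It was 2.32-fold lower in the Fra-1 line (log2 difference −1.21, SE 0.10, adjusted p = 2.60e-04).

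Egr2 moved the other way. It was 5.41 to 5.61 in the Fra-1 line, a range of 0.20, and 2.53 to 3.80 in the Fra-2 line. The log2 difference was 2.34 (5.05-fold higher in the Fra-1 line, SE 0.17, limma adjusted p = 1.57e-04), and 1.92 between controls alone. Klf6, the third of the Krüppel-like factors, was 6.62 to 6.93 in the Fra-1 line and 5.76 to 6.23 in the Fra-2 line. It was 1.79-fold higher in the Fra-1 line (log2 difference 0.84, SE 0.12, adjusted p = 0.00192), without overlap.

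The remaining genes gave weaker or no calls. Klf4 ran from 1.55 to 1.90 in the Fra-1 line and from 1.03 to 1.86 in the Fra-2 line, and the lines overlapped because the arrays labelled Fra-2 knockout were high. Its difference was 0.55 between controls (adjusted p = 0.0278) and 0.33 over all arrays (adjusted p = 0.0336, exact permutation p = 0.229). Egr1 ran from 1.07 to 1.57 and from 1.18 to 1.91 and overlapped. Its difference was −0.35 over all arrays (adjusted p = 0.0360, exact permutation p = 0.200) and 0.13 between controls (adjusted p = 0.555). The calls of Klf4 and of Egr1 were lost under several other settings, among them a slide term (adjusted p = 0.0609 for Klf4 and 0.0658 for Egr1 over all arrays), no filter on dim probes, and the removal of single arrays. Over all arrays, Klf4 was no longer called without Fra-1 control 1 or 2, Fra-1 knockout 1 or 2, Fra-2 control 1 or 2, or Fra-2 knockout 2 (adjusted p from 0.0555 to 0.114). Egr1 was no longer called without Fra-1 control 1, Fra-1 knockout 1 or 2, Fra-2 control 1 or 2, or Fra-2 knockout 1 or 2 (0.0538 to 0.104). Between controls, Klf4 was no longer called without Fra-1 control 1 or 2, Fra-1 knockout 1 or 2, or Fra-2 control 1 or 2 (0.0558 to 0.111). Dusp1 ran from 1.69 to 2.32 and from 1.30 to 2.49 and was not called between controls (0.47, adjusted p = 0.173) or between lines (0.17, interval −0.24 to 0.58, adjusted p = 0.422).

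For the genes whose lines did not overlap, the order of the lines within each slide was fixed in advance. Slide 2 held only 1 Fra-1 line array, a knockout, beside 2 Fra-2 line arrays. Egr1 and Klf4, which were called although their lines overlapped, differed by −0.25 and 0.18 on slide 1 and by −0.56 and 0.59 on slide 2. Nr4a1 differed by −3.58 on slide 1 and −2.95 on slide 2, Klf2 by −3.01 and −1.62, Zfp36 by −1.38 and −1.42, and Ier2 by −1.25 and −1.18. Egr2 differed by 2.55 and 2.21 and Klf6 by 0.80 and 0.91. Besides resident macrophage markers, other marker lists moved with the line: the summed level of B cell markers was 1.58 to 5.44 in the Fra-1 line and 38.5 to 81.3 in the Fra-2 line, of mast cell markers 1.29 to 2.63 and 42.0 to 135, and of fibroblast markers 40.7 to 157 and 1.41 to 3.26. Mesothelial markers summed to 5.54 to 16.3 and 1.51 to 2.38. Eosinophil markers summed to 6.95 to 7.87 and 1.97 to 5.68, and T and NK cell markers to 4.92 to 6.29 and 6.45 to 6.65. The last 2 sums hide opposite members. Of 4 eosinophil markers tested, 2 were called higher in the Fra-1 line (Siglecf by 3.10) and 1 lower (Il5ra, −2.42). Of 4 T and NK cell markers, 1 was called higher and 3 lower (Cd3d, −3.10). Of all features, 27.3% were called higher and 26.3% lower. All 9 genes are also expressed by cells other than macrophages, and the part of these lists in the line differences was not tested.

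**Figure D3:**
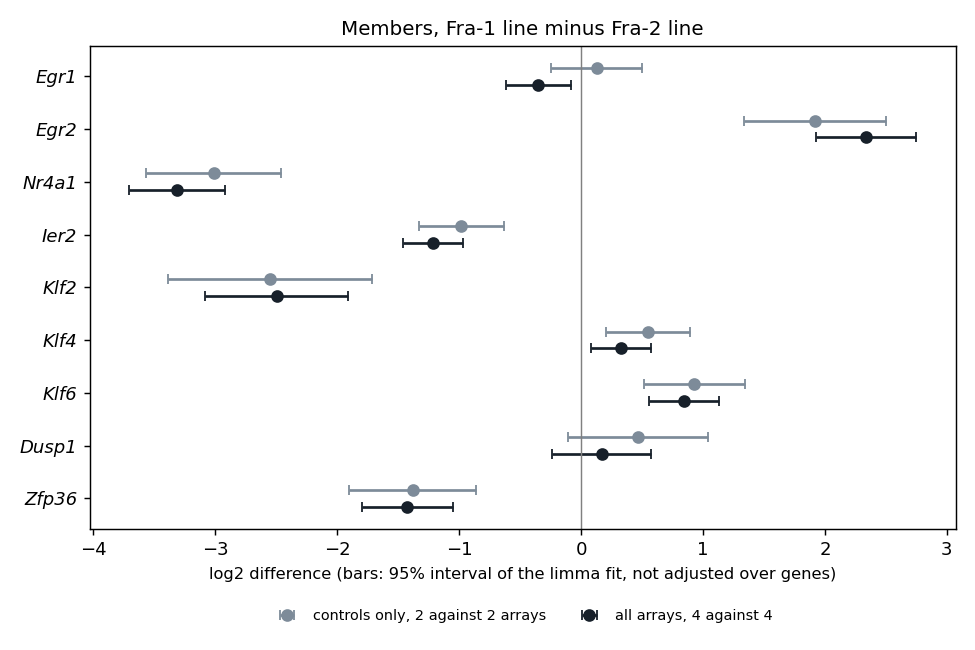
Log2 difference of each tested gene, Fra-1 line minus Fra-2 line, for the control arrays alone (grey, 2 against 2) and for all arrays (black, 4 against 4). Bars are 95% intervals of the limma fit, not adjusted over genes. Nr4a1, Klf2, Zfp36 and Ier2 lie below 0 and Egr2, Klf6 and Klf4 above it in both, while Egr1 changes side and Dusp1 includes 0 in both.

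Relatives of these genes also lay on both sides between the lines. Of 14 other immediate early transcription factors tested, 6 were called higher in the Fra-1 line and 5 lower, where 27.3% of all features were called higher and 26.3% lower (median log2 difference 0.02, beside −0.0029 for all features). Jun, the partner of the Fra proteins, rose by 2.39 (adjusted p = 4.56e-05), whereas Nr4a2, the nearest relative of Nr4a1, fell by 2.13 and Nfil3, a leucine zipper factor induced by cytokines, fell by 3.52 (limma adjusted p = 4.56e-05 and 2.38e-05). Of 20 other immediate early genes, 7 were called higher and 8 lower, beside the same shares. Plk2, a stress-induced kinase, rose by 3.10 and Rgs1, a brake on G protein signalling, by 4.64 (adjusted p = 1.40e-05 and 1.52e-05). In the knockout comparisons 0 of these 34 genes were called.

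Of the other Krüppel-like factors, 8 of 14 were tested and 2 were called higher and 4 lower in the Fra-1 line, beside 27.3% and 26.3% of all features (median −0.25). Klf3, a repressor with the same DNA preference, was lower by 1.32 as measured by limma (log2 difference −1.32, adjusted p = 1.27e-04), and Klf8 and Klf9 were higher, by 2.96 and 1.49 (adjusted p = 1.97e-04 and 3.15e-04). The EGR corepressor Nab1 was lower (−1.27, adjusted p = 3.72e-04) and the related EGR corepressor Nab2 was not called (−0.24, adjusted p = 0.12). Of serum response factor and 5 partners, which drive EGR genes through CArG boxes, 2 were higher and 3 lower. Mrtfb, an actin-regulated coactivator, differed by 2.01, and Elk4 and Elk3, ternary complex factors, by −1.0 and −1.21 (limma adjusted p from 1.44e-04 to 0.00707).

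Of 11 other dual specificity phosphatases, 5 were called higher and 3 lower in the Fra-1 line (27.3% and 26.3% of all features), with a median of 0.37. Dusp4 and Dusp2, nuclear phosphatases of MAP kinases like Dusp1, were higher by 2.78 and 1.27 (limma adjusted p = 1.60e-04 and 3.81e-04), beside 0.17 for Dusp1 itself. The Zfp36 relative Zfp36l1, which also promotes messenger decay, was lower by 2.72 on the log2 scale (log2 difference −2.72, adjusted p = 1.73e-05), and Zfp36l2 differed by 0.11 (adjusted p = 0.59). Of 4 inhibitors of ERK signalling induced by feedback, 0 were called higher and 1 lower, Spry1.

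Most messengers known as targets of the ZFP36 protein were called lower in the Fra-1 line. Of 11 tested, 0 were called higher and 9 lower, where 27.3% of all features were called higher and 26.3% lower, and Ccl3 (0.27, limma adjusted p = 0.416) and Il1a (−1.09, limma adjusted p = 0.0949) were not called. The list had a median of −3.72, or −2.33 when all values below −3.85 were raised to that level. Each array has a lowest level read as well above background, and −3.85 is the highest of these. Of the 11, 8 were well above background on all 8 arrays. Il1b had the largest difference among the 3 with the smallest p, with group means of −2.67 ± 0.12 (SD, n = 2) in Fra-1 controls, −2.37 ± 0.24 in Fra-1 knockouts, 7.13 ± 0.71 in Fra-2 controls and 7.30 ± 1.24 on the arrays labelled Fra-2 knockout. Its log2 difference was −9.74 (SE 0.43, limma adjusted p = 3.38e-05). Cxcl2, a chemokine for neutrophils, and Ier3, an early gene, differed by −4.92 and −4.20 (limma adjusted p = 1.27e-04 and 6.10e-05). Both Ier3 and Ptgs2 are also counted among the other immediate early genes. In the knockout comparisons 0 of the 11 were called, with medians of 0.05 and 0.12.

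**Figure D4:**
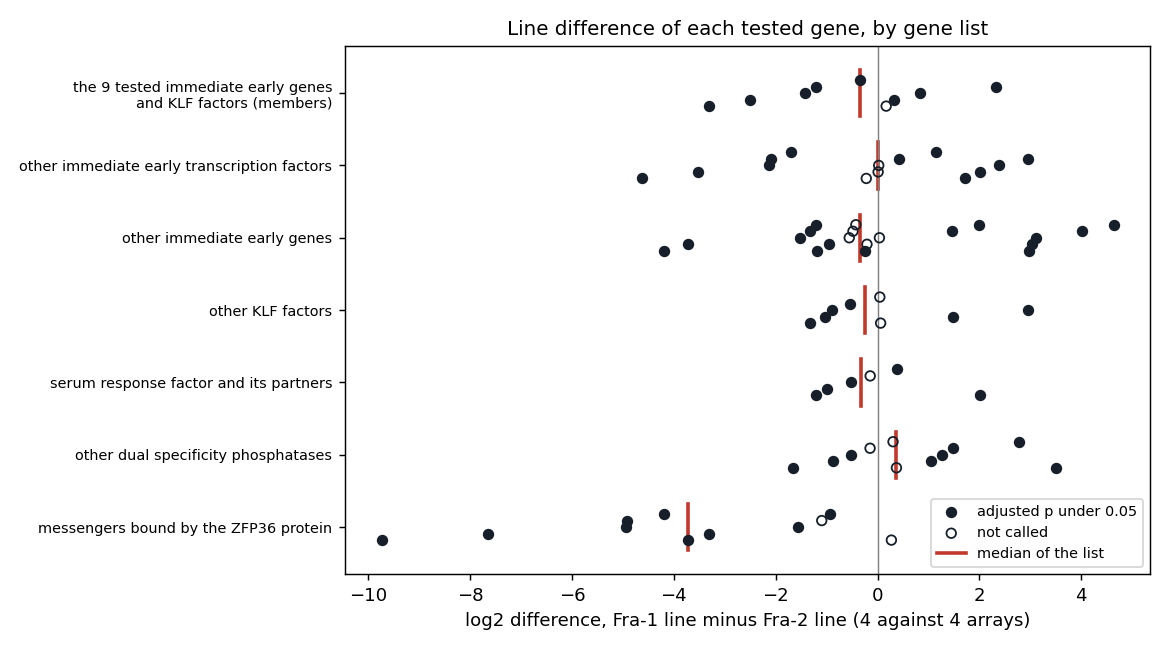
Log2 difference, Fra-1 line minus Fra-2 line (4 against 4 arrays), of each tested gene in 7 lists, with a row per list. Filled points had a limma adjusted p under 0.05, open points did not, and red bars are list medians. The lists of transcription factors, other early genes and Krüppel-like factors spread to both sides of 0, and the messengers bound by ZFP36 lie at a median of −3.72.

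Across the 8 arrays, Nr4a1 had Pearson r of 0.99 with Ier2, 0.98 with Klf2 and −0.99 with Egr2, which for the most part restates the line difference that all arrays of a line share. After the mean of each line was removed, r was 0.86, 0.76 and −0.91, and it was 0.91 between Klf4 and Dusp1 and −0.88 between Egr2 and Dusp1. The knockout minus control differences within a line were not removed, so these r in part restate them. Other pairs changed sign, among them Nr4a1 with Zfp36 (0.93 to −0.43) and Nr4a1 with Klf6 (−0.90 to 0.39). These are descriptions over 8 arrays. Among 13655 other named genes, the gene most like each by Pearson r over the 8 arrays was Car13 for Egr2 (0.999), Dennd4a for Nr4a1 (0.999), Mif4gd for Klf2 (0.997), Lbp for Ier2 (0.996), Zfp105 for Zfp36 (0.997), Smcr8 for Klf6 (0.99), Nkg7 for Klf4 (0.96), Maz for Egr1 (0.93) and Zfp386 for Dusp1 (0.92). Zfp36 and Zfp105 were both higher on all 4 arrays of the Fra-2 line. The lowest best r belonged to Dusp1, the gene that differed least between the lines.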

How the data were processed

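The submitters deposited 1 scanner text file per array and a series matrix. Per the file headers, arrays were single-colour Cy3, extracted with Feature Extraction 11.5.1.1, and the deposited processed signals are linear intensities with the background subtracted. Per the file headers, background, outlier and saturation columns are flags of 0 or 1. Comparison with the scanner signals showed that the authors' series matrix has log2 values on the 75th percentile scale, from which every probe's own median had been taken off. Its column medians were −0.15 to 0.25. Probe design coordinates use mm9 per the file headers and are not printed.

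Here, control and outlier spots (191 to 317 per array) were left out and spots of a probe averaged. Processed signals were divided by the 75th percentile of their array (signal 315 to 470) and put on the log2 scale. Of 55681 probes, 28026 were named by accession through RefSeq on GRCm38.p6, and 31159 passed the filter on dim probes, which asked that some group have the probe well above background throughout. The brightest passing probe stood for a gene. Group means of the 8 arrays were estimated together using limma 3.58.1 (R 4.3.3; residual degrees of freedom 4, prior 1.99), with Benjamini-Hochberg adjustment over all features per comparison, and calls were made at 0.05 on the adjusted p. The fit was tested on simulated data. The number of arrays limits the precision. Intervals are not adjusted over genes. Marker levels were summed over genes with a value on all arrays. The array design counts mice, so replicates are mice.

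The genes and lists were chosen with earlier results of these data known. Named genes were the 10 genes, Fosl1 and Fosl2, per list up to 3 called genes with the smallest p per comparison, or the gene with the smallest p where none was called, and per early gene the named gene most correlated with it. Not every gene the rule admits is printed. Timd4, Zfp36l2, Ccl3 and Il1a were added to complete a comparison after their values were seen, and Ptgs2 to name an overlap between lists. Alternatives were quantile normalization, normexp (offset 50, on spot medians), the series matrix, 2 other filters, averaging a gene's probes, a term for the slide, fitting the compared groups alone, an intensity trend, a common floor, and leaving out each array. Figures were made with Python 3.11.15, pandas 2.3.3, numpy 2.4.6 and matplotlib 3.10.9.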

Additional observations from a re-analysis of the deposited data

Results flagged for a closer look

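Egr1 moved in opposite directions in the lines without overlap: both Fra-1 knockout arrays lay below both Fra-1 controls, and both arrays labelled Fra-2 knockout lay above both Fra-2 controls. The Fra-1 effect minus the Fra-2 effect was −0.95 on the log2 scale. Without single arrays it ran from −1.13 to −0.78, and the Fra-1 part of it from −0.48 to −0.13. The test of this difference in limma did not call it (adjusted p = 0.286), and 8.92% of all features (2035) showed opposite movement of this kind. Groups of 2 arrays were too small for a test of outlying arrays.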

How the results depend on the processing

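No paired analysis was possible because the labels give the groups no shared replicate numbers, and the numbers used here only name arrays. A slide term, which pairs arrays by slide and not mice, was fitted instead. The number of early genes called was 0 of 9 in both knockout comparisons and in the difference between them under every alternative run and without each array in turn. Between controls it was 6 to 7 under alternatives and 6 to 7 without single arrays, and between lines 6 to 8 and 6 to 7, where the calls of Nr4a1, Klf2, Zfp36, Ier2, Egr2 and Klf6 held throughout. In the Fra-1 comparison, log2 differences near 0 changed sign for Ier2 (0.113) and Zfp36 (0.0106) with normexp and for Egr2 (−0.14) with a slide term. Without single arrays they ran from −0.0747 to 4.96e-04 for Ier2, −0.431 to 0.0770 for Zfp36, −0.0914 to 0.218 for Klf6 and −0.0375 to 0.159 for Egr2. On the arrays labelled Fra-2 knockout, Fosl2 read −0.0164 as a mean of probes, and without single arrays Zfp36 ran from −0.192 to 0.00502 and Fosl1 from −0.0894 to 1.36. The difference between knockout effects reversed for Zfp36 (0.0550) with normexp and for Fosl2 (0.16) as a mean of probes. Without single arrays it ran from −0.281 to 0.494 for Klf2 and −0.337 to 0.171 for Zfp36. Egr1 between controls ran from −0.0485 to 0.302. Fosl1 between lines was called without Fra-2 knockout 2 alone (−1.34, adjusted p = 0.0136). The cause was not tested. Quantile normalization called 14 features in the labelled Fra-2 comparison (21.4% higher) and 10 in the difference (50% higher), and normexp called 10 (60% higher) in the former. Features called over the whole array moved more: 0 to 22 in the Fra-1 comparison (3 as reported; 17 without either array labelled Fra-2 knockout), 0 to 53 in the labelled Fra-2 comparison (0 as reported; 45 without Fra-2 knockout 2 and 53 with an intensity trend) and 0 to 27 in their difference (1 as reported; 27 without Fra-2 knockout 2). With quantile normalization or normexp the median of all features moved by at most 0.0338 on the log2 scale. Signals near background limit what dim genes can show, since no probe below a level of −3.85 to −4.98, depending on the array, was read as well above background.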
